A study of Mus musculus with 14 samples.

Results

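The 43 genes described here make, elongate, desaturate, activate, take up, store and release fatty acids. They were taken by gene symbol out of 24411 genes in the deposited tables, and every symbol was found. By role, they fall into carbon supply and chain synthesis (7 genes), desaturation (5), elongation (6), activation to acyl-CoA (7), uptake and carriers (4), triglyceride synthesis and lipid droplets (10) and lipolysis (4). In culture libraries 40 of the 43 passed the filter on low counts, and Cd36, Cidec and Mgll did not. All 43 passed it in tumour libraries.

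Fatty acids are built from cytosolic acetyl-CoA, which is carboxylated to malonyl-CoA and joined into palmitate by fatty acid synthase. Palmitate is then elongated in the endoplasmic reticulum and given double bonds by desaturases. A fatty acid of any source has to be joined to coenzyme A before it can be burned, built into membranes or esterified to glycerol and kept in lipid droplets, and lipases free it again. Cancer cells can both synthesise fatty acids and take them up, and the sterol regulatory element binding protein encoded by Srebf1 is a main transcriptional activator of the synthetic genes.

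The study asked how cells of the mouse colon cancer line MC-38 are changed by neutrophil extracellular traps (NETs), webs of chromatin released by neutrophils, and by surgery of the host. In culture, 3 libraries of MC-38 cells given NET chromatin from neutrophils were set against 3 libraries of untreated MC-38 cells. GFP-positive MC-38 cells were also flow sorted from tumours in the lung on day 30, in PAD4 knockout (KO) hosts with laparotomy on days 0 and 10, KO hosts without it, wild-type (WT) hosts with the same laparotomies, and WT hosts without it, with 2 libraries a group. PAD4, encoded by Padi4, is the enzyme that citrullinates histones in NET release. Only the host lacks it: the labels give the cancer cells of every group as WT. Whether replicate libraries stem from different cultures or mice is not stated, so p-values reflect the spread between the libraries at hand, which may be technical. The sources used here give no strain, sex or age of the hosts, and no stated number of sorted cells.

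Gene counts per library ran from 6.39 to 20.6 M in culture and from 10.8 to 31.3 M in tumours (M, 1000000 counts). Markers of the colon and simple epithelium, the origin of the line, were low everywhere: the 9 genes together reached 2.01 to 32.0 counts per M counts (CPM) in tumour libraries, 0.979 to 1.85 CPM in NET cultures and 0.91 to 1.93 CPM in control cultures, and Cdx2, an intestinal transcription factor, had 0 counts in all 8 tumour libraries. Markers of leukocytes, lung epithelium and endothelium were present in the sorted tumour libraries. Fibroblast markers, 7 collagen and stromal genes, summed to 3484 to 12164 CPM in tumour libraries and 133 to 137 CPM in control cultures. Of these, control cultures held Pdgfra at 85.2, 83.1 and 81.8 CPM and Col3a1 at 37.8, 39.1 and 35.9 CPM, but Col1a1 at 1.18, 1.81 and 1.45 CPM. The list is therefore not particular to host cells, and the source of its transcripts in tumours was not tested. The share of MC-38 cells in the sorted libraries was not measured, so tumour values below are those of the libraries and may not be those of cancer cells alone. Library 2 of the unoperated WT hosts had the highest sum of every marker list except the fibroblast one, with 725 CPM of type 2 lung epithelial markers (9 genes) and 968 CPM of pan-leukocyte markers (10 genes). Some tumour results that rest on it are therefore also given without it. The highest fibroblast sums were 12164 CPM in library 2 of the operated KO hosts and 9366 CPM in library 1 of the unoperated KO hosts. These are bulk libraries, in which fewer cells of a type and less RNA per cell cannot be told apart. Padi4 itself had 3.97 and 2.83 CPM in KO hosts with laparotomy, 5.47 and 2.08 CPM in KO hosts without it, 30.7 and 30.3 CPM in WT hosts with laparotomy and 3.20 and 7.49 CPM in WT hosts without it. Since the sorted cells carry their own Padi4, these values do not check the host labels.

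NET chromatin moved most of the genes, and more of them down than up. Of the 40 tested in culture, 21 fell and 10 rose at an adjusted p under 0.05 (edgeR), which is 52.5% and 25% of them, against backgrounds of 27.8% lower and 26.3% higher among all 11753 genes tested. The share that rose was close to its background and the share that fell was above it. The median log2 fold change was -0.23 over the 40 and close to 0 over all genes, and the median size of the change was 0.37 against 0.27. In 19 members every NET library lay below every control library (background 30.6%), and in 9 every NET library lay above (29.5%). Genes that fell were found in every role group except uptake and carriers, where all 3 tested members rose. The split depended on the scaling: by library totals, which shift the median of all genes by -0.16 on the log2 scale, 23 members fell and 6 rose, at backgrounds of 40.6% lower and 14% higher.

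**Figure D1:**
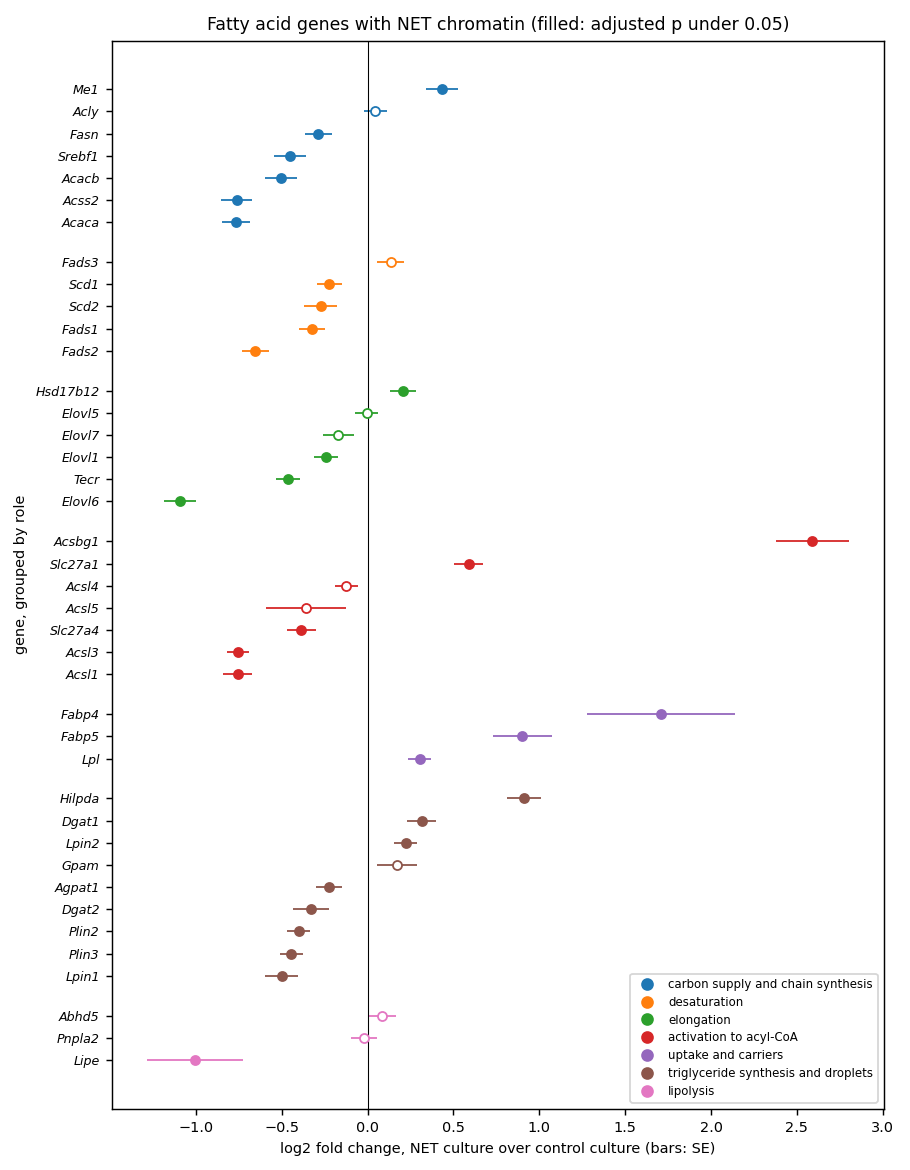
Log2 fold change of NET over control cultures (horizontal axis) for the 40 members tested, grouped by role, with standard errors as bars. Acsbg1 has the largest rise (2.59) and Elovl6 the largest fall (-1.09), and every tested member of uptake and carriers is to the right of 0.

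In carbon supply and chain synthesis 5 of 7 genes fell and 1 rose, and the transcript for the committed step was lower. Acaca, the cytosolic acetyl-CoA carboxylase that makes the malonyl-CoA for synthesis, had 35.3, 31.3 and 35.8 CPM in the 3 NET libraries and 58.4, 57.7 and 59.9 CPM in the 3 control libraries. The groups were well apart, and the log2 fold change was -0.77 ± 0.081 (SE; adjusted p = 7.65e-07). Acss2, which makes acetyl-CoA from acetate, gave 24.2, 28.3 and 27.1 CPM in NET cultures and 42.4, 46.5 and 45.8 CPM in controls, again with no overlap, and fell by 0.76 ± 0.089 on the log2 scale (SE; adjusted p = 2.27e-06). Acacb, the carboxylase at the mitochondrial surface whose malonyl-CoA restrains fatty acid entry, stood at 21.3, 21.2 and 20.3 CPM with NETs and 28.9, 28.7 and 30.8 CPM without, a log2 change of -0.50 ± 0.094 (SE; adjusted p = 0.000248). Fasn, the synthase itself, changed less: its NET libraries held 147, 125 and 144 CPM, all below the control libraries at 155, 187 and 166 CPM, with a log2 change of -0.29 ± 0.078 (SE; adjusted p = 0.00499).

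Srebf1 transcripts fell too, to 131, 149.6 and 148 CPM in NET cultures, against 166, 226 and 194 CPM in controls (-0.45, adjusted p = 0.000613). Library 2 was the highest of each group, and the groups still did not overlap. Acly, which cleaves citrate to acetyl-CoA and so supplies the pathway from glucose carbon, did not pass the test: 215, 239.8 and 228 CPM with NETs and 201, 232 and 228 CPM without, with a log2 change of 0.046 ± 0.069 (SE; adjusted p = 0.596). Me1, the malic enzyme that supplies NADPH to synthesis, was the member of this role that rose. Its libraries held 179, 251 and 209 CPM with NETs and 149, 160.4 and 163 CPM without (0.43, adjusted p = 0.000966).

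Among desaturases, 4 of 5 fell. Fads2, the first desaturase of polyunsaturated fatty acid synthesis, had 56.1, 61.7 and 62.3 CPM in NET cultures and 85.6, 100.2 and 97.5 CPM in controls, a log2 change of -0.65 ± 0.078 (SE; adjusted p = 3.06e-06). Fads1, which acts later in the same route, had 278, 333 and 307 CPM with NETs and 355, 417 and 374 CPM without (-0.32, adjusted p = 0.00163). Neither gene had overlapping libraries, while the third of the cluster, Fads3, did not pass (0.14, adjusted p = 0.156). Scd1 and Scd2 make monounsaturated fatty acids from saturated ones. Scd1 had 285, 348 and 296 CPM in NET cultures and 348, 371 and 364 CPM in controls, so the second NET library reached the first control library (-0.22, adjusted p = 0.0147). Scd2 overlapped as well, with 754, 1026 and 877 CPM in NET libraries and 974, 1182 and 1053 CPM in control libraries (-0.27, adjusted p = 0.0259). Both calls were lost when certain libraries were left out 1 at a time, as given with the other small changes at the end of the culture results.

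Of the 6 elongation genes 3 fell and 1 rose. Elovl6, which extends palmitate to stearate, showed the largest fall of the 40 genes tested: 40.6, 30.7 and 36.7 CPM in NET cultures and 84.1, 71.1 and 77.8 CPM in controls, a log2 change of -1.09 ± 0.094 (SE; adjusted p = 1.1e-07). The highest NET library was far below the lowest control library. Tecr, the reductase that closes each elongation cycle, fell to 139, 151 and 154 CPM with NETs, against 195, 223 and 197 CPM in controls (-0.46, adjusted p = 3.27e-05). Elovl1, which elongates saturated very long chains, had 74.4, 75.8 and 82.2 CPM with NETs and 90.2, 95.2 and 91.2 CPM without (-0.24, adjusted p = 0.00697). Hsd17b12, the ketoacyl reductase of the same cycle, went the other way. It had 182, 226 and 208 CPM in NET libraries and 165, 178 and 190.3 CPM in control libraries, which overlap (0.21, adjusted p = 0.0323). Elovl5, an elongase of polyunsaturated chains, and Elovl7 did not pass, at -0.0048 (adjusted p = 0.956) and -0.17 (adjusted p = 0.113).

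Of the 7 activation genes 3 fell and 2 rose, among them the steepest rise of the 40 and the fall of smallest p. Acsbg1, an acyl-CoA synthetase known from brain and gonads, had 10.4, 12.0 and 10.4 CPM in NET cultures and 1.07, 2.51 and 1.60 CPM in controls, from 360 counts in NET and 63 in control libraries, a log2 change of 2.59 ± 0.21 (SE; adjusted p = 7.37e-08). Every NET library was far above every control library. Acsl3, the long-chain synthetase of the endoplasmic reticulum and of nascent droplets, had 79.6, 85.4 and 83.2 CPM with NETs and 139, 139 and 139.7 CPM in controls, a log2 change of -0.75 ± 0.064 (SE; adjusted p = 9.78e-08). Its control libraries differed by an SD of 0.465 CPM around a mean of 139. Acsl1, the broad synthetase that feeds both storage and oxidation, fell as much, with 52.4, 42.0 and 43.6 CPM in NET cultures and 77.8, 78.9 and 75.9 CPM in controls (-0.76 ± 0.084 SE, adjusted p = 1.37e-06). Acsl4, which prefers arachidonic acid, and Acsl5 did not pass, at -0.12 (adjusted p = 0.130) and -0.36 (adjusted p = 0.207).

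The fatty acid transport proteins Slc27a1 and Slc27a4, which import and activate fatty acids, moved in opposite directions. Slc27a1 had 386, 428 and 432 CPM in NET cultures and 244, 322 and 263 CPM in controls (0.59, adjusted p = 2.88e-05). Slc27a4 had 32.8, 35.7 and 38.5 CPM in NET cultures and 45.1, 49.5 and 46.2 CPM in controls (-0.39, adjusted p = 0.00119). Neither gene had overlapping libraries.

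Uptake and carrier genes were higher in NET cultures. Lpl, the lipase that frees fatty acids from lipoproteins outside the cell, had 190.0, 192 and 179.9 CPM with NETs and 156, 139 and 159 CPM without, a log2 change of 0.30 ± 0.067 (SE; adjusted p = 0.00111). Fabp5, an intracellular carrier found in epithelia and macrophages, had 12.5, 19.7 and 14.7 CPM in NET cultures and 10.5, 7.14 and 7.31 CPM in controls (0.90, adjusted p = 0.00031). Fabp4, the carrier of adipocytes and macrophages, was near the limit of detection, with 2.57, 2.19 and 1.43 CPM in NET cultures and 0.643, 0.942 and 0.152 CPM in controls from 62 counts with NETs and 20 without (1.71, adjusted p = 0.0031). Cd36, a surface receptor for fatty acids and modified lipoproteins, could not be tested: the 3 NET libraries held 23 counts together and the 3 control libraries 1.

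Leukocytes also express Cd36, Fabp4, Fabp5 and Lpl, and leukocyte markers moved in the same direction in these cultures. The 10 pan-leukocyte markers summed to 16.0, 18.5 and 17.0 CPM in NET libraries and 4.61, 5.18 and 5.40 CPM in control libraries. The 12 monocyte and macrophage markers summed to 161, 183 and 165 CPM with NETs and 104, 113 and 94.8 CPM without, of which Cd68, a lysosomal protein, alone gave 127, 150.0 and 134 CPM with NETs and 89.4, 98.0 and 78.3 CPM without. Of the same list, Adgre1 had 55 counts and Csf1r 28 in NET libraries and both had 0 in control libraries, while C1qa and C1qc had 0 in all cultures. The 9 neutrophil markers in the tables summed to 15.4, 15.8 and 16.2 CPM with NETs and 9.54, 9.18 and 9.21 CPM without, of which the gelatinase gene Mmp9 alone gave 12.7, 12.3 and 12.4 CPM with NETs and 9.11, 8.24 and 8.98 CPM without. Cd68 and Mmp9 thus made up most of these sums in both groups. Among the other neutrophil markers, S100a9 had 43 counts and Csf3r 11 in NET libraries and both had 0 in control libraries. S100a8 had 40 counts with NETs and 5 without, and Cxcr2 13 with NETs and 2 without. Camp had 9 counts with NETs and 11 without, Ltf had 1 in each group, and Retnlg and Ngp had 0 in all cultures. Ptprc, which encodes the common leukocyte antigen, had 45 counts in NET libraries and 1 in control libraries. The NET chromatin was prepared from neutrophils. The part of such RNA in the 4 genes was not tested. Adipocyte markers summed to less than 1 CPM in every culture library.

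Of the 9 triglyceride and droplet genes tested 5 fell and 3 rose. Hilpda, a droplet protein that inhibits the lipase encoded by Pnpla2, had 89.7, 125 and 121 CPM in NET cultures and 58.9, 62.6 and 57.2 CPM in controls, a log2 change of 0.91 ± 0.10 (SE; adjusted p = 1.86e-06). Transcripts of the droplet coat proteins fell. Plin2 held 112, 101 and 115 CPM in NET libraries, all below the controls at 146, 148 and 141 CPM (-0.40, adjusted p = 9.3e-05). Plin3 had 150.3, 140.4 and 149 CPM with NETs and 187, 216 and 197 CPM without (-0.44, adjusted p = 3.73e-05). In the glycerolipid steps that lead to triglyceride, Gpam, which adds the first acyl chain, did not pass (0.17, adjusted p = 0.235), and Agpat1, which adds the next, fell (-0.22, adjusted p = 0.0214). Of the phosphatases that follow, Lpin1 fell (-0.50, adjusted p = 0.000375) and Lpin2 rose (0.22, adjusted p = 0.00946).

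The enzymes of the last step, diacylglycerol acyltransferases of unrelated sequence, also parted. Dgat1 had 38.9, 38.1 and 41.1 CPM in NET cultures and 30.4, 34.0 and 30.9 CPM in controls (0.31, adjusted p = 0.00526), and Dgat2 had 15.1, 17.2 and 17.6 CPM in NET cultures and 20.9, 21.2 and 21.1 CPM in controls (-0.33, adjusted p = 0.013). Neither pair overlapped. Cidec, which fuses droplets in adipocytes, could not be tested, at 10 counts in NET cultures and 1 in controls.

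Of the 3 lipolysis genes tested 1 fell. Pnpla2, the first lipase of triglyceride breakdown, had 75.2, 69.8 and 74.7 CPM in NET cultures and 67.1, 80.4 and 75.4 CPM in controls, and Abhd5, its coactivator, had 54.7, 49.9 and 48.7 CPM with NETs and 49.1, 46.6 and 48.3 CPM without. Their log2 fold changes were -0.020 ± 0.078 (SE; adjusted p = 0.840) and 0.086 ± 0.079 (SE; adjusted p = 0.372). Lipe, hormone-sensitive lipase, fell but was barely present, with 1.35, 1.18 and 1.22 CPM in NET libraries and 1.71, 2.75 and 2.89 CPM in control libraries from 42 counts with NETs and 89 without (-1.004 ± 0.28 SE, adjusted p = 0.00568). DESeq2 did not call it, at an adjusted p of 0.056. Its counts in the strand-specific column were 148% of those in the unstranded column. The unstranded values used here thus leave out reads that the strand-specific column gives to Lipe. Acss2 stood at 108%, Me1 and Agpat1 at 103% and Cidec at 94.6%, and the other members between 99.2 and 100.2%. Mgll, the monoglyceride lipase, had 3 counts in NET cultures and 0 in controls.

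Some calls on small changes were lost when 1 library was left out. Where a pair stands in brackets, it is the log2 fold change and the adjusted p without that library. Scd1 was not called without NET library 1, at -0.17 (adjusted p = 0.0658), or without NET library 3, at -0.19 (adjusted p = 0.096). Scd2 lost its call without NET library 1 (-0.17, 0.0944), NET library 3 (-0.27, 0.076), control library 2 (-0.20, 0.110) or control library 3 (-0.29, 0.0525). Hsd17b12 lost it without NET library 2 (0.14, 0.125), NET library 3 (0.20, 0.108), control library 1 (0.16, 0.133) or control library 2 (0.20, 0.0604). Agpat1 lost it without NET library 2 (-0.19, 0.0505), NET library 3 (-0.25, 0.0546), control library 1 (-0.21, 0.0622) or control library 3 (-0.23, 0.0629). For these 4 genes, then, the direction held in every subset and the call did not. Lpin2 was not called without control library 3 (0.19, 0.0619), Dgat1 without NET library 3 (0.28, 0.051) and Dgat2 without NET library 1 (-0.27, 0.0561). In the other direction, Fads3 was called without NET library 2 (0.20, 0.0307), Elovl7 without control library 2 (-0.24, 0.0347), and Acsl4 without NET library 2 (-0.17, 0.0476) or control library 2 (-0.17, 0.049). Scaled by library totals, Hsd17b12 (0.047, 0.608), Lpl (0.15, 0.08), Lpin2 (0.066, 0.418) and Dgat1 (0.16, 0.130) were not called, while Elovl7 (-0.33, 0.00622) and Acsl4 (-0.28, 0.00191) fell.

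Of 69 other genes of lipid synthesis, uptake and storage, 67 were in the tables and 35 were tested in culture, of which 6 rose and 15 fell (60% called, against 54.1% of all genes). Their median log2 fold change was -0.18. Among those with the smallest p were Hacd1, a dehydratase of the elongation cycle, and Vldlr, a lipoprotein receptor. Hacd1 had 40.5, 46.2 and 41.3 CPM in NET cultures and 24.5, 23.2 and 25.3 CPM in controls (0.80 ± 0.090 SE, adjusted p = 1.51e-06). Vldlr had 114, 131 and 129 CPM with NETs and 175, 195 and 184 CPM without (-0.57 ± 0.071 SE, adjusted p = 4.06e-06). In neither gene did the groups overlap. In tumours 48 of the 67 were tested and none was called by edgeR in any of the 5 comparisons.

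Members of one pathway moved both ways, so sequences upstream are shown for those of smallest p in each direction, Acsl3 and Elovl6 among falls and Acsbg1 and Hilpda among rises. RefSeq gives a start for 35 of the 43 members (mouse GRCm38.p6; none was matched for Dgat1, Dgat2, Fabp4, Fabp5, Fads1, Lpl, Scd1 and Scd2). Each is written 5′ to 3′ on the strand of its gene, and capitals mark matches, on either strand, to the CCAAT box (CCAAT), the GC box (GGGCGG), the core ACGTG of hypoxia response elements or the E-box (CACGTG). The first, for Acsl3, lies at chr1:78657575-78657824 on the plus strand directly before the gene. The second, for Elovl6, lies at chr3:129532136-129532354 on the plus strand. The third, for Acsbg1, lies at chr9:54661886-54662135 on the minus strand. The last is a window of 30 bases around a match before another RefSeq start of Hilpda that lies inside the annotated gene (chr6:29272573-29272602, plus strand).
Acsl3: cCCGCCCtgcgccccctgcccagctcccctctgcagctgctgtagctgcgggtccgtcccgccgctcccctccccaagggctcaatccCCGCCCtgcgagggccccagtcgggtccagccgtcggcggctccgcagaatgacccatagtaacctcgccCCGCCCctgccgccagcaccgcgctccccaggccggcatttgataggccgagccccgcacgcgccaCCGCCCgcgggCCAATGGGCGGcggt
Elovl6: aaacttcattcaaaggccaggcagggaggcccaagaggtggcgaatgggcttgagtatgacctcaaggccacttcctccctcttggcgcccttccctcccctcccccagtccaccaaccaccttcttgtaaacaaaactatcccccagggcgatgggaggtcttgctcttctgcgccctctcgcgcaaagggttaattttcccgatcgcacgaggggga
Acsbg1: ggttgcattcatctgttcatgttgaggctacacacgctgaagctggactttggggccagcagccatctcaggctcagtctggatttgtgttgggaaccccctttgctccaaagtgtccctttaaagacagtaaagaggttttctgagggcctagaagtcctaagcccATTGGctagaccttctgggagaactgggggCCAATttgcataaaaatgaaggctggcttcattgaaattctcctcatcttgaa
Hilpda: tggccagcggACGTGccccagggcgagctc

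The 250 bases before Acsl3 hold GC boxes on both strands and a CCAAT box that runs into one of them, those before Acsbg1 hold CCAAT boxes only, and no motif was found in those before Elovl6, of which the 219 before the annotated gene are printed. The window of Hilpda holds ACGTG. Over the 250 bases before the starts of the 35 members, GGGCGG was present in 25 (71.4%, against 35.4% of all 27025 genes with a RefSeq start, non-coding ones included) and CCAAT in 21 (60%, against 37.5%). ACGTG was present in 10 (28.6%, against 18.5%), of which 5 hold it as CACGTG (14.3%, against 6.86%). ACGTG preceded 5 of the 6 members with a start that rose with NETs (Hilpda, Hsd17b12, Lpin2, Me1 and Slc27a1) and 2 of the 17 that fell (Acacb and Lipe). CCAAT and GGGCGG each preceded 5 of those 6 and 11 of those 17. These are matches of letters and were not tested.

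Tumour libraries were set beside the control cultures as levels only, since source, sorting and host cells differ with the place of growth and cannot be told apart from it. Of the 42 members at a mean of 1 CPM or more, 12 lay higher in all 8 tumour libraries than in all 3 control cultures (28.6%, against 32.1% of 12648 genes) and 18 lay lower (42.9%, against 30.4%). Fasn ran from 370.3 to 546 CPM in tumours, with a median of 457, against 158 to 192 CPM in control cultures. Acaca and Acly, which precede it, also lay higher in every tumour library. Of the same role, Acacb (tumour median 11.4 CPM, culture 29.6), Acss2 (tumour 16.3, culture 46.7) and Srebf1 (tumour 140, culture 197) lay lower in every one. Me1 overlapped. The desaturases Scd1, Scd2, Fads1 and Fads2 also lay lower in every tumour library, and Fads3 overlapped. Scd1 had 127 to 229 CPM in tumours (median 176), against 355 to 382 CPM in control cultures.

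The acyl-CoA synthetases lay on both sides. Acsl5 had a median of 100.2 CPM in tumours, against 3.40 CPM in control cultures, a ratio of 29.5, and its tumour libraries kept within 88.7 to 114 CPM. Acsl4 had 348 CPM in tumours and 153 CPM in control cultures. Both were above control cultures in every tumour library, while Acsl1 and Acsl3 were below. Acsl1 had a median of 20.3 CPM in tumours and 79.4 CPM in control cultures, and Acsl3 had 55.8 CPM in tumours and 142 CPM in control cultures. Elovl7 was the member furthest below: 0.484 to 7.60 CPM in tumours, against 41.1 to 47.9 CPM in control cultures. Genes of import, storage and release differed as well: Slc27a1 (tumour median 52.0 CPM, culture 268), Lpl (tumour 24.6, culture 159.6), Lpin1 (tumour 11.9, culture 73.5) and Pnpla2 (tumour 24.8, culture 76.9) lay lower, and Plin2 (tumour 260.0, culture 149) lay higher.

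**Figure D2:**
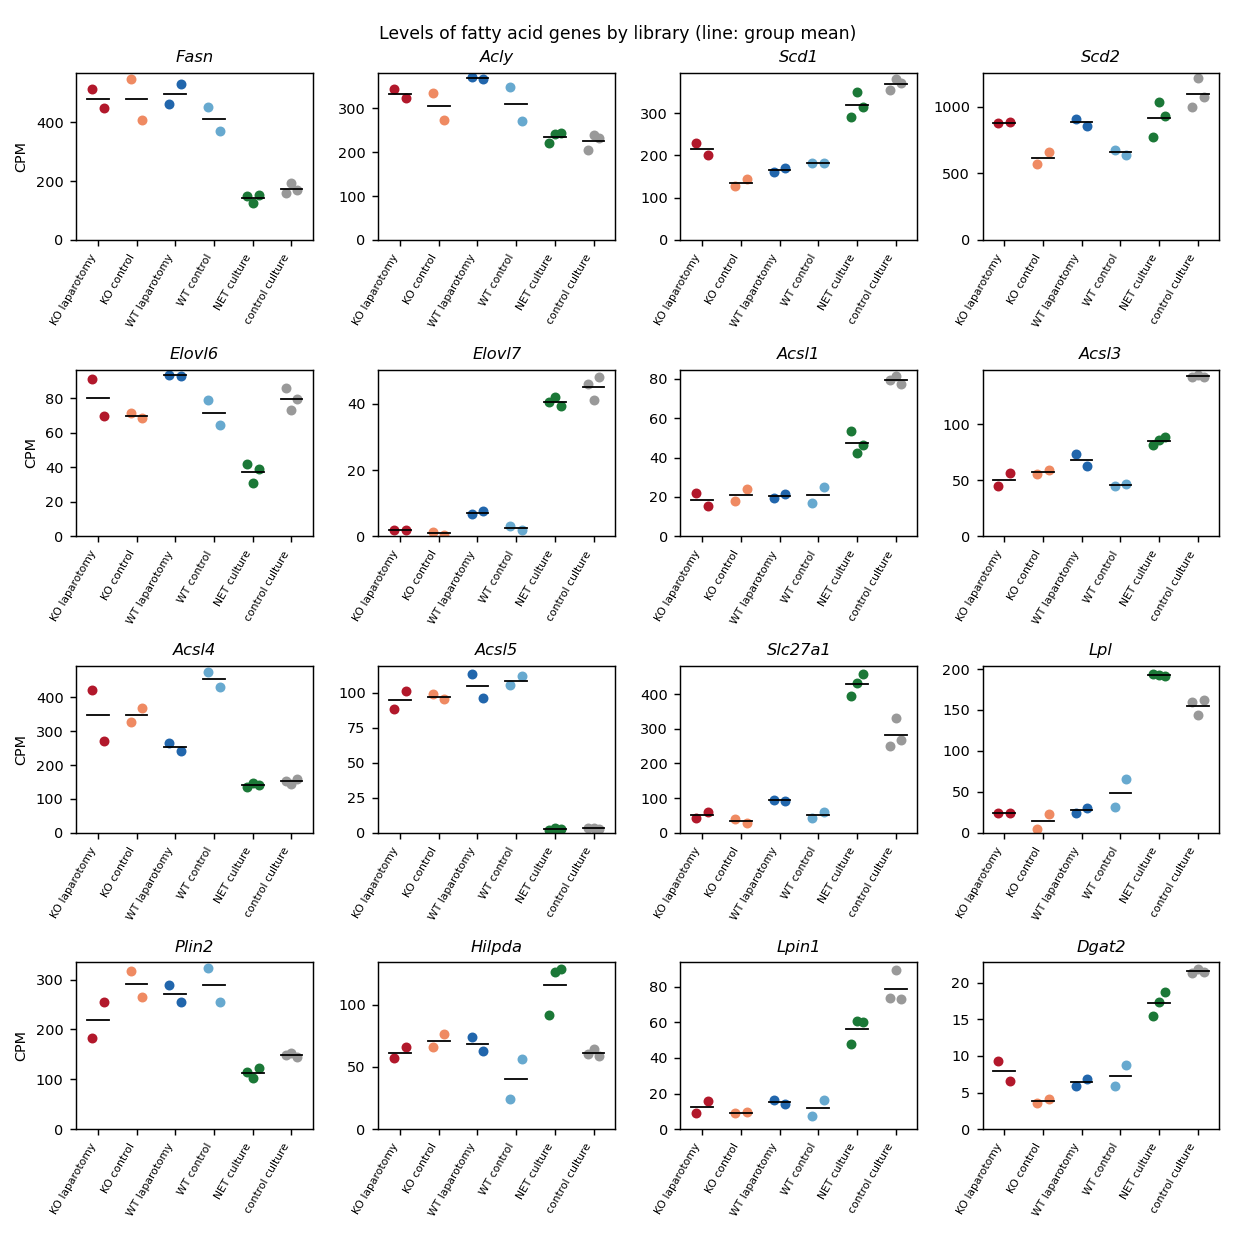
CPM of 16 members in each of the 14 libraries, scaled over all libraries (vertical axes are linear and differ between panels), with 1 point a library and a bar at the group mean. Fasn, Acsl4 and Acsl5 are higher in the tumour groups than in control cultures, and Scd1, Acsl1, Acsl3 and Lpl are lower.

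Fibroblast marker sums were higher in every tumour library than in every control culture, as given at the start. Macrophage markers summed to 141 to 1772 CPM in tumours and 94.8 to 113 CPM in control cultures. Of that list Cd68 went the other way, with 14.7 to 58.6 CPM in tumours and 78.3 to 98.0 CPM in control cultures. The rest of the list was higher in every tumour library, such as Lyz2 with 37.3 to 1065 CPM against 1.82 to 2.20 CPM. The part of host cells in these levels was not tested. Lipe lay above control cultures only with factors over all libraries, and overlapped them by library totals. No fold is given for Cd36, Mgll or Cidec, which had at most 1 count in all control cultures together.

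The comparison of laparotomy with no surgery in WT hosts asks whether an operation on the host changes these genes in cells sorted from its tumours. None of the 43 members passed the test by edgeR, at a background of 0.0547% of 14615 genes. At an unadjusted p under 0.05 there were 15 members (34.9%, against 18.8% of all genes), 8 higher and 7 lower, and DESeq2 called 4 higher and 4 lower (background 8.42% of the genes to which it gave an adjusted p). In 15 members both laparotomy libraries lay above both unoperated ones (background 29.2%), and in 13 both lay below (28.1%). The smallest p belonged to Acsl4, which had 272 and 247 CPM in WT hosts with laparotomy and 483 and 446 CPM in WT hosts without it, a log2 change of -0.84 ± 0.19 (SE; adjusted p = 0.135). Scd2 came next, with 931 and 872 CPM with laparotomy and 687 and 656 CPM without (0.42 ± 0.10 SE, adjusted p = 0.137). In both genes the pairs of libraries were well apart and the members of a pair close.

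In carbon supply and chain synthesis 6 of 7 genes had positive estimates in WT hosts, none of which passed, and Acacb had a negative one (-0.27, adjusted p = 0.594), with 8.98 and 11.1 CPM with laparotomy and 11.1 and 13.1 CPM without. Fasn had 474 and 539 CPM with laparotomy and 458 and 382 CPM without (0.27, adjusted p = 0.429), Acaca 96.2 and 97.2 CPM with it and 80.3 and 65.9 CPM without (0.41, adjusted p = 0.180), and Me1 205 and 200.2 CPM with it and 162 and 130.4 CPM without (0.47, adjusted p = 0.143). Fasn, Acaca and Me1 had no overlapping pairs, but the size rested on the control library. Without WT control library 2 the estimates were 0.15 for Fasn, 0.27 for Acaca and 0.33 for Me1, and without WT control library 1 they were 0.41, 0.55 and 0.64, of which that of Me1 passed (adjusted p = 0.0464). Without WT laparotomy library 2 the estimate of Fasn was 0.18. Acsl3 had 75.6 and 63.7 CPM with laparotomy and 45.2 and 48.4 CPM without (0.57, adjusted p = 0.141), and Slc27a1 98.1 and 93.0 CPM with it and 44.5 and 62.9 CPM without (0.83, adjusted p = 0.167). Acsl3, Acaca, Fasn and Scd2 are thus among the members that fell with NETs in culture and had positive estimates here. Acacb and Scd1 fell in culture and had negative ones.

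Cd36, Mgll and Cidec differed most in 1 library. Cd36 had 2.66 and 5.76 CPM in WT hosts with laparotomy and 24.4 and 150.2 CPM in WT hosts without it (-4.36, adjusted p = 0.186). Mgll had 12 and 8 counts with laparotomy and 28 and 234 without (-3.74, adjusted p = 0.138), and Cidec 1 and 2 counts with it and 9 and 91 without (adjusted p = 0.138). No log2 change is given for Cidec, since 3 counts fix it. In each, the high value was library 2 of the unoperated hosts. Without that library the log2 fold changes were -2.51 for Cd36 and -2.72 for Mgll (adjusted p = 0.678 and 0.425). Without WT control library 1 instead, Mgll passed at -4.32 (adjusted p = 0.0459). The marker sums of library 2 are given with the plot of host markers.

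In KO hosts 1 member passed. Hsd17b12, the ketoacyl reductase of elongation, had 257 and 283 CPM with laparotomy and 154 and 161 CPM without, and rose by 0.77 ± 0.11 on the log2 scale (SE; adjusted p = 0.034). None fell. That is 2.33% of the members, at a background of 0.342% higher and 0.178% lower. At an unadjusted p under 0.05 there were 15 members, 11 higher and 4 lower (34.9%, against 15.7% of all genes), and DESeq2 called 6 higher and 1 lower (background 5.45%). In 16 members both laparotomy libraries lay above both others (background 21.6%) and in 10 both lay below (20.5%). The call for Hsd17b12 held without either WT control library and was lost without any 1 of the other 6, with adjusted p of 0.0619 and 0.117 without KO laparotomy library 1 or 2, 0.256 and 0.0661 without KO control library 1 or 2, and 0.092 and 0.0996 without WT laparotomy library 1 or 2. Its log2 fold change was 0.68 to 0.83 in these 6 fits.

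Desaturases, another elongation enzyme and a transport protein came next. Scd1 had 232 and 205 CPM with laparotomy and 132 and 146 CPM without (0.65 ± 0.11 SE, adjusted p = 0.0554), and passed without WT control library 1 (adjusted p = 0.0465) or library 2 (0.0398). Tecr had 171 and 148 CPM with laparotomy and 109 and 109 CPM without (0.55, adjusted p = 0.0788), Slc27a4 77.4 and 70.1 CPM with it and 50.8 and 50.4 CPM without (0.54, adjusted p = 0.0826), and Scd2 885 and 900.4 CPM with it and 588 and 665 CPM without (0.51, adjusted p = 0.086). In all 4 the laparotomy libraries were the higher ones with no overlap. Fasn and Acly, by contrast, overlapped: Fasn had 518 and 455 CPM with laparotomy and 566 and 415 CPM without (-0.010, adjusted p = 0.986), and Acly 347 and 328 CPM with it and 346 and 278 CPM without (0.11, adjusted p = 0.763).

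**Figure D3:**
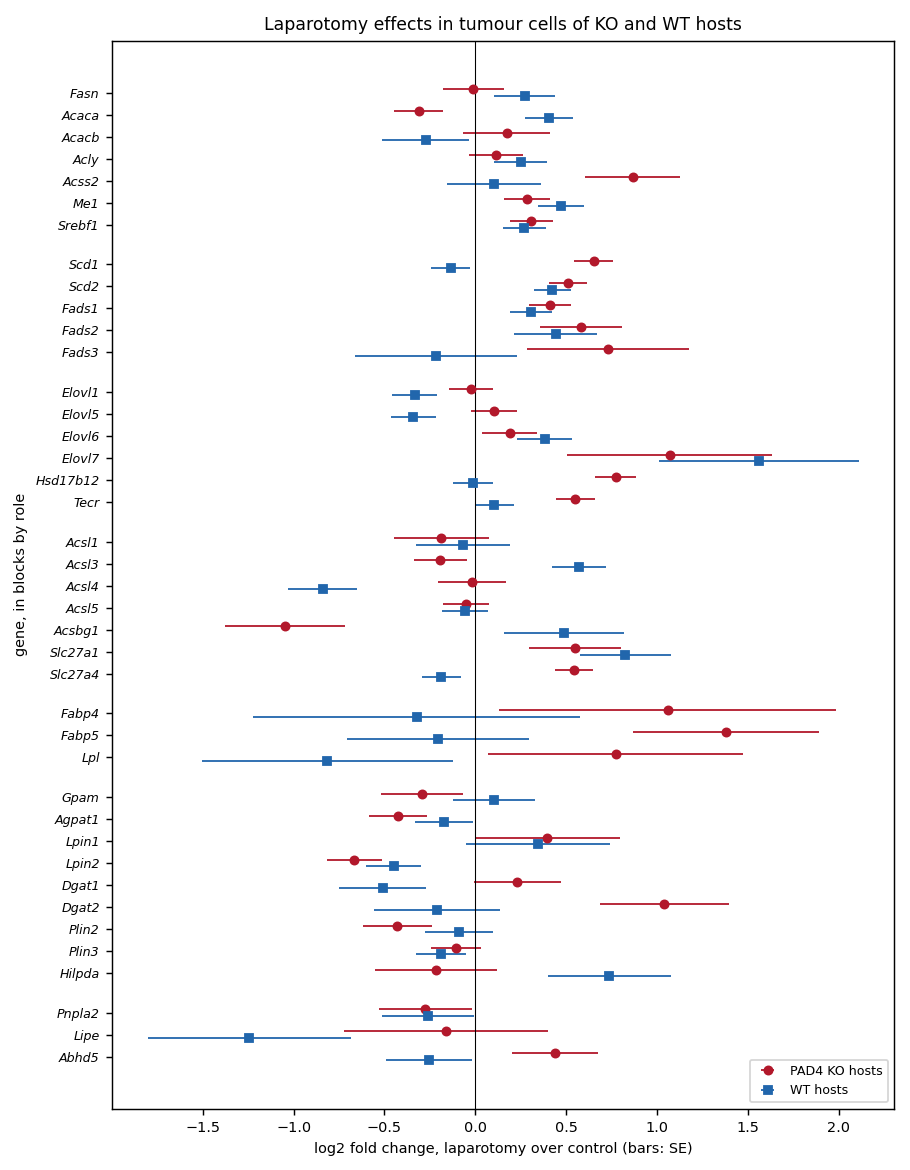
Log2 fold change of laparotomy over control (horizontal axis, bars are standard errors) in KO hosts and in WT hosts for 40 members, with Cd36, Mgll and Cidec left out because their estimates would set the scale. Hsd17b12 in KO hosts (0.77) is the point that passed the test, and Scd1, Hsd17b12 and Slc27a4 are further to the right in KO than in WT hosts.

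The laparotomy effect was then compared between hosts with an interaction term, the effect in KO hosts minus that in WT hosts. No member passed by edgeR (background 0.677%); 11 had an unadjusted p under 0.05 (25.6%, against 19.2% of all genes), 8 higher and 3 lower, and DESeq2 called 5 higher and 2 lower (background 7.81%). Scd1 differed by 0.79 ± 0.15 (SE; adjusted p = 0.0659), with log2 changes of 0.65 in KO hosts and -0.13 in WT hosts. Hsd17b12 differed by 0.79 ± 0.16 (SE; adjusted p = 0.0709), from changes of 0.77 in KO hosts and -0.013 in WT hosts, and Slc27a4 by 0.73 ± 0.15 (SE; adjusted p = 0.0732), from 0.54 in KO hosts and -0.19 in WT hosts. Acaca went the other way, at -0.72 ± 0.19 (SE; adjusted p = 0.115), from -0.31 in KO hosts and 0.41 in WT hosts. By edgeR, an effect that passed in KO and not in WT hosts is therefore not shown to differ between them. The difference for Hsd17b12 did pass by DESeq2 (adjusted p = 0.000714), with no filter on low counts (0.0328) and with all 14 libraries in 1 fit (0.0083). That for Scd1 passed in the same alternatives (0.000903, 0.0316 and 0.00491). Neither passed with library totals or the strand-specific column. Hilpda did not pass, at -0.95 (adjusted p = 0.324). Its estimate was -1.72 without WT control library 2 (adjusted p = 0.0211) and -0.50 without WT control library 1 (adjusted p = 0.276). Its libraries held 57.7 and 67.1 CPM in KO hosts with laparotomy, 68.0 and 77.0 CPM in KO hosts without it, 75.8 and 63.8 CPM in WT hosts with laparotomy and 24.7 and 57.9 CPM in WT hosts without it, so the unoperated WT pair lay furthest apart.

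Without laparotomy, the median log2 fold change of KO over WT hosts was -0.16 over the members and -0.018 over all genes. Of the 43 members 10 had a positive estimate. None passed by edgeR (background 0.116%), 14 had an unadjusted p under 0.05 (32.6%, against 16.3%), 2 higher and 12 lower, and DESeq2 called 1 higher and 3 lower (background 5.4%). In 15 members both KO libraries lay below both WT libraries and in 5 both lay above, each against a background of 22.2%. Slc27a4 had 50.8 and 50.4 CPM in KO hosts and 79.6 and 75.7 CPM in WT hosts (-0.62 ± 0.11 SE, adjusted p = 0.0827). Hsd17b12 had 154 and 161 CPM in KO hosts and 253 and 225 CPM in WT hosts (-0.60 ± 0.11 SE, adjusted p = 0.0956), and Scd1 132 and 146 CPM in KO and 185 and 188 CPM in WT hosts (-0.42, adjusted p = 0.156). The 3 genes are those of the interaction above, and the comparisons share the unoperated hosts, so they are not separate evidence. Acsbg1 had an estimate of the other sign, with 20.8 and 12.3 CPM in KO hosts, against 6.03 and 7.35 CPM in WT hosts (1.30, adjusted p = 0.160). Hilpda did not pass either, at 0.79 (adjusted p = 0.306), and its estimate was 1.55 without WT control library 2 (adjusted p = 0.035) and 0.34 without WT control library 1 (adjusted p = 0.395).

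Operated KO and WT hosts were compared last. No member passed by edgeR (background 0.0205%), 7 had an unadjusted p under 0.05 (16.3%, against 13.4%), 4 higher and 3 lower, and DESeq2 called 0 higher and 2 lower (background 3.99%). In 10 members both KO libraries lay above both WT libraries (background 26.2%), and in 13 both lay below (26.1%). The smallest p belonged to Slc27a1, at 41.7 and 61.1 CPM in KO hosts and 98.1 and 93.0 CPM in WT hosts (-0.89 ± 0.25 SE, adjusted p = 0.214), and Elovl7, at 1.81 and 2.02 CPM in KO and 6.89 and 7.75 CPM in WT hosts (-1.93 ± 0.56 SE, adjusted p = 0.222). Scd1 had 232 and 205 CPM in KO hosts and 166 and 174 CPM in WT hosts (0.36, adjusted p = 0.231), and Acsl3 45.4 and 57.0 CPM in KO and 75.6 and 63.7 CPM in WT hosts (-0.44, adjusted p = 0.264), which was -0.29 without KO laparotomy library 1. In all 4 genes the KO and WT pairs did not overlap.

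Host cell and fibroblast markers varied inside the groups and between them. Fibroblast markers summed to 6512 and 12164 CPM in KO hosts with laparotomy, 9366 and 5163 CPM in KO hosts without it, 4837 and 3484 CPM in WT hosts with laparotomy and 6204 and 4933 CPM in WT hosts without it. Both operated WT libraries were thus below both unoperated WT libraries and both operated KO libraries, while the KO pairs overlapped. Whether host cells or MC-38 cells gave these transcripts was not tested, nor was their part in the tumour comparisons. Alveolar macrophage markers summed to 31.2 and 34.9 CPM in KO hosts with laparotomy, 10.6 and 41.9 CPM in KO hosts without it, 10.1 and 11.4 CPM in WT hosts with laparotomy and 50.6 and 312 CPM in WT hosts without it. Endothelial markers summed to 131 and 111 CPM in KO hosts with laparotomy, 98.6 and 351 CPM in KO hosts without it, 73.0 and 70.3 CPM in WT hosts with laparotomy and 157 and 586 CPM in WT hosts without it. Library 2 was the higher of the pair in both unoperated groups. Cd36, which alveolar macrophages and lung endothelium express, had 20.1 and 19.4 CPM in KO hosts with laparotomy, 10.5 and 105 CPM in KO hosts without it, 2.66 and 5.76 CPM in WT hosts with laparotomy and 24.4 and 150.2 CPM in WT hosts without it, and was likewise high in library 2 of both. Lpl had 24.8 and 24.1 CPM in KO hosts with laparotomy, 4.94 and 23.7 CPM in KO hosts without it, 25.3 and 31.4 CPM in WT hosts with laparotomy and 31.7 and 67.5 CPM in WT hosts without it, with the same 2 libraries the higher of their pairs. Fabp5 had 34.4 and 12.9 CPM in KO hosts with laparotomy, 5.70 and 12.5 CPM in KO hosts without it, 17.2 and 15.1 CPM in WT hosts with laparotomy and 15.3 and 21.7 CPM in WT hosts without it, and Fabp4 had 2.49 and 1.62 CPM in KO hosts with laparotomy, 0.304 and 1.66 CPM in KO hosts without it, 1.96 and 1.57 CPM in WT hosts with laparotomy and 0.822 and 3.50 CPM in WT hosts without it. Adipocyte markers summed to 0.152 to 1.62 CPM over the 8 tumour libraries, and Lep, the defining hormone of adipocytes, had 0 counts in all of them. The part of host cells in these 4 genes was not tested.

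**Figure D4:**
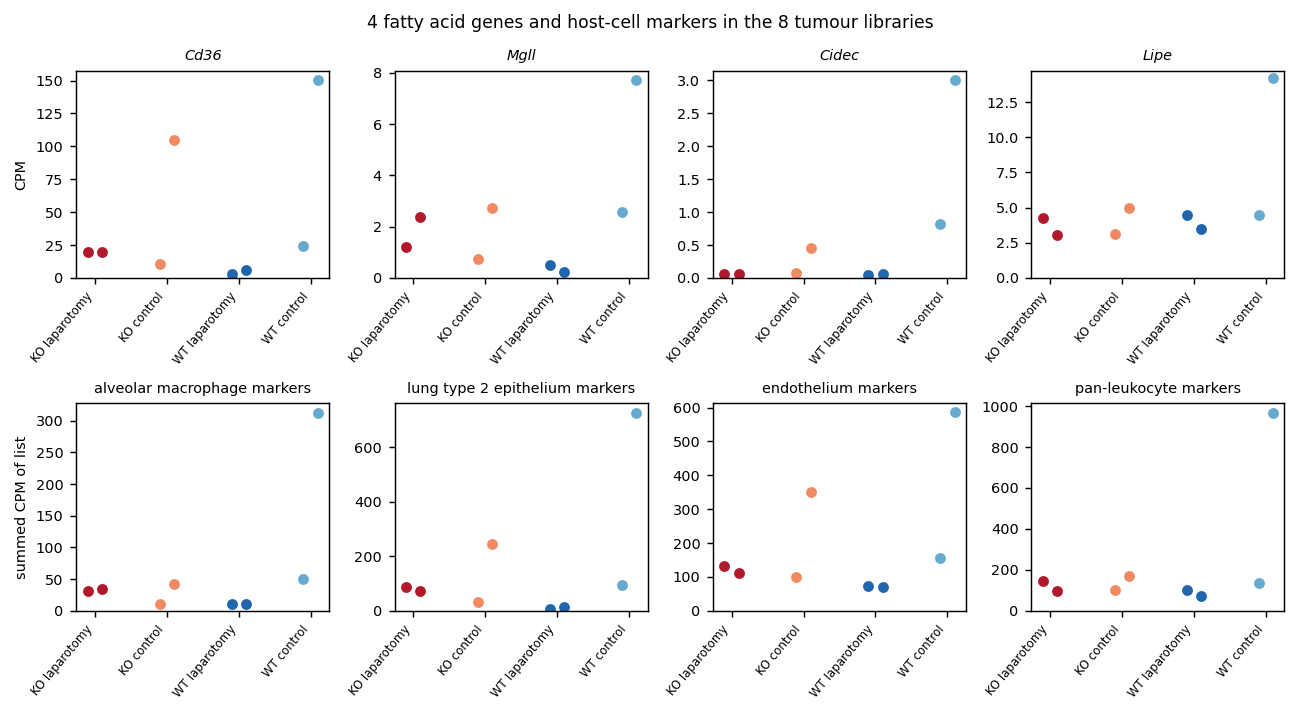
CPM of Cd36, Mgll, Cidec and Lipe (upper row) and summed CPM of alveolar macrophage, type 2 lung epithelial, endothelial and pan-leukocyte markers (lower row) in each tumour library. Vertical axes are linear and differ between panels, with 1 point a library, by group. Library 2 of the unoperated WT hosts has the highest type 2 lung epithelial sum (725 CPM) and pan-leukocyte sum (968 CPM).

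Members differed widely in level per length of exon. In control cultures Scd2 was the highest, at 196 ± 19.3 CPM per kb of exon (SD, n = 3), followed by Tecr at 154 ± 11.7 with no overlap of their SDs. Fads1 (110.3 ± 9.18), Slc27a1 (97.3 ± 14.2) and Hsd17b12 (93.4 ± 6.64) came next, and each overlapped its neighbour among these within 1 SD. Fasn stood in place 24, at 16.9 ± 1.58 CPM per kb. In unoperated WT hosts the order differed. Plin2 came first, with 174 and 139 CPM per kb in the 2 libraries, then Hsd17b12 with 133 and 118 and Scd2 with 126 and 120.3, while Fasn stood in place 10 with 45.5 and 38.0 and Elovl7 in the last place, 43. Scd2 was higher than Scd1 per kb in every library of every group: its mean was 162 against 64.1 CPM per kb in NET cultures, and 196 against 74.7 CPM per kb in control cultures. Scd1 and Scd2 are close in sequence. Reads that map to more than 1 place, 6.14 to 9.25% over all libraries, are among the summary lines left out. Both genes may therefore be undercounted, and by how much was not tested.

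Several members are neighbours in the mouse genome (GRCm38, GENCODE M21). On chromosome 19, which holds 7 of the 43, Fads3 (chr19:10041569-10060110), Fads2 (chr19:10062765-10101746) and Fads1 (chr19:10182888-10196877) lie in a row, with gaps of 2.65 and 81.1 kb. Of these adjacent desaturases, Fads1 and Fads2 fell with NETs and Fads3 did not pass. Scd2 (chr19:44293674-44306864) and Scd1 (chr19:44394455-44407879) are 87.6 kb apart on the same chromosome, and both fell. Fabp5 (chr3:10012548-10016607) and Fabp4 (chr3:10204088-10208576) on chromosome 3 are 187 kb apart, and both rose. Gpam (chr19:55067268-55127238) and Acsl5 (chr19:55251938-55297720), 125 kb apart, did not pass in culture. The genes whose upstream sequences are shown are not among these neighbours, with Acsbg1 at chr9:54604877-54661870, Elovl6 at chr3:129532355-129638495, Acsl3 at chr1:78657825-78707743 and Hilpda at chr6:29272488-29275446.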

How the data were processed

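RNA from MC-38 cells was sequenced in 14 libraries: 3 NET and 3 control cultures, and 2 libraries in each of 4 tumour groups. The authors deposited 1 table of read counts per gene for each library, made with Trimmomatic and STAR on mm10 per the submitters' processing notes. The unstranded counts (column 2) were used, and column 4, the strand-specific column with more reads, served as an alternative. Summary lines that name no gene, 25.2 to 45.3% of reads, were left out. Reads need not be independent molecules, and no molecular identifiers were given.

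Tests used the quasi-likelihood method of edgeR 4.0.16 under R 4.3.3 (filterByExpr, TMM, robust fit) with Benjamini-Hochberg adjustment over all genes tested and a threshold of 0.05. Culture (11753 genes) and tumour libraries (14615 genes, 4 groups) were fitted apart, each with 4 residual degrees of freedom. The fits were also run on simulated data, where recovery of the smaller changes by the tumour fit was low. A member that did not pass in tumours is therefore not shown to be unchanged. CPM values use the TMM factors of the same fit, and those that set tumours beside cultures use factors over all 14. Levels per kb use GENCODE M21 exon lengths. Standard errors come from the quasi-likelihood F.

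The members, roles and lists were chosen with earlier results of these data known. Library values are given for the 3 members of smallest p in each role with NETs, the 4 in each tumour comparison, and the best-known members. Other members were named after their values were seen, to complete a role. Some results are not reported here. Tumour comparisons share groups with each other. Alternatives were DESeq2 1.42.0, RLE factors, library totals, no filter, column 4, a replicate block, each library left out, all 14 libraries in 1 fit and the compared groups alone. Deviations of same-numbered libraries correlated at -0.122 to 0.357. With 2 libraries a tumour group, crossed numbers give the same values with the other sign. The tumour values therefore cannot show whether libraries are paired, and numbers were not taken to pair them.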

Additional observations from a re-analysis of the deposited data

How the results depend on the processing

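With NETs, 21 members fell and 10 rose, and the count of 31 stayed within 1.5 times of that under each alternative except 1: with all 14 libraries in 1 fit, which pools cultures and tumours of unequal spread, it was 17 (background 25.8%). Leaving out a library gave 26 to 31. In tumours the counts were small and moved more. DESeq2 called 8 members for laparotomy in WT hosts (background 8.42%), 7 for laparotomy in KO hosts (5.45%), 7 for the difference between hosts (7.81%), 4 between unoperated hosts (5.4%) and 2 between operated hosts (3.99%). All 14 libraries in 1 fit gave 10, 9, 8, 9 and 3 in the same order, at backgrounds of 10.1%, 7.85%, 11.1%, 7.25% and 4.94%. With no filter on low counts there were 5 for laparotomy in KO hosts (1.44%), 2 for the difference (2.07%) and 2 between unoperated hosts (1.02%). The compared groups alone gave 0 for laparotomy in KO hosts (0.396%) and 2 between operated hosts (1.64%). Leaving out a library gave 0 to 2 members for laparotomy in WT hosts, 0 to 2 in KO hosts, 0 to 1 for the difference, 0 to 1 between unoperated hosts and 0 between operated hosts. The cause was not tested.

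Library numbers were not taken to pair the samples. The replicate block left the NET count at 31. It moved the count for laparotomy in KO hosts to 0, with Hsd17b12 at an adjusted p of 0.0634. Crossing the KO laparotomy numbers in the block, chosen after seeing the data, gave 2.

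Reversed estimates all belonged to members that did not pass. By library totals the NET log2 change was -0.11 for Acly, -0.021 for Fads3 and -0.070 for Abhd5. Elovl5 was 0.0098 with all 14 libraries. Leaving out a library gave -0.013 to 0.082 for Acly, -0.035 to 0.037 for Elovl5 and -0.084 to 0.038 for Pnpla2. With laparotomy it gave -0.093 to 0.076 for Hsd17b12 in WT hosts, and -0.22 to 0.23 for Fasn and -0.038 to 0.29 for Acly in KO hosts. Fasn in KO hosts was 0.0063 with all 14 libraries and 0.0049 with the compared groups alone. Depth limits Fabp4, Lipe, Cd36, Cidec and Mgll in culture, at 89 counts or fewer per group.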
